A study of Homo sapiens with 6 samples.

Results

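The miRNAs of the imprinted DLK1-DIO3 region at 14q32 were examined in LX-2 cells activated by TGF-β1, either in co-culture with HUC-MSCs or in single culture. The members were chosen by name, with every table row whose miRNA number belongs to the 49 numbers of this region taken and each mature sequence counted once. This gave 51 of the 463 distinct sequences in the table, from 39 of the numbers, and 294 known miRNA sequences lay outside. The other 10 numbers had no row in the table used here. LX-2 is an immortalized human hepatic stellate cell line, and HUC-MSCs are mesenchymal stem cells from human umbilical cord. In the co-culture group (3 libraries), LX-2 cells in the lower chamber of a transwell shared medium with HUC-MSCs in the upper chamber for 48 h. In the single culture group (3 libraries), the upper chamber held no cells. LX-2 cells of both groups had received TGF-β1 at 10 ng/mL, for 24 h by the labels, and the study's methods give a longer exposure. Small RNA of the LX-2 cells was sequenced, and all libraries came from 1 line and 1 kind of activation. Nothing in the sources used here says whether the libraries of a group came from separate cultures, so p-values measure the spread between libraries, which may be technical.

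The region is imprinted: the protein-coding genes DLK1, RTL1 and DIO3 are expressed from the paternal chromosome, and the noncoding RNAs MEG3, MEG8 and MEG9 and all its miRNAs from the maternal one. The miRNAs are cut from hairpins along these long maternal transcripts. They are abundant in placenta, embryo and brain, and they have been described in lung fibroblasts of pulmonary fibrosis. A mature miRNA comes from the 5p or the 3p arm of its hairpin and pairs with target mRNAs mainly through its seed, the bases 2 to 8. Some miRNAs of the region lie antisense to RTL1 and can direct cleavage of its mRNA, as shown in mouse.

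The 10 sequences below held 96.2% to 96.9% of the cluster's tags in every library and are shown for that reason, in order of total tags. They are RefSeq sequences, 5′ to 3′, with the seed in capitals.
miR-381-3p: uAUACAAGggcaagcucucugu
miR-379-5p: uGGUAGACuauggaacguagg
miR-127-3p: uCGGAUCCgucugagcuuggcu
miR-411-5p: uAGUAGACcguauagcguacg
miR-370-3p: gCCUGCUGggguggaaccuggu
miR-409-3p: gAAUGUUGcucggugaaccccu
miR-493-3p: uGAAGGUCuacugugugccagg
miR-493-5p: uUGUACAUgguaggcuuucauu
miR-889-3p: uUAAUAUCggacaaccauugu
miR-134-5p: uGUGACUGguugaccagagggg
No seed occurred more than once among these 10. The cluster's 51 sequences had 48 distinct seeds, and 0 of the 51 shared a seed with a known miRNA outside the cluster in this table. A seed was shared by miR-1185-1-3p and miR-1185-2-3p, by miR-485-3p and miR-539-3p, and by miR-541-3p and miR-654-5p.

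All 51 sequences matched RefSeq miRNA genes on the plus strand of chromosome 14 (GRCh38.p14), within 198 kb. The widest gap, 111 kb, lay between miR-370-3p (chr14:100911186-100911207) and miR-379-5p (chr14:101022071-101022091). Of the sequences, 10 lay before this gap over 42.1 kb and 41 after it over 44.7 kb. In GENCODE release 29, the sequences of miR-127-3p, miR-136-3p, miR-431-5p, miR-432-5p and miR-433-3p fell within the span of RTL1, which runs on the minus strand (chr14:100879753-100903722). Of those after the gap, 13 fell within MEG8, 6 within MIR381HG, the host transcript of miR-381, and 7 within MEG9.

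The libraries differed in depth and in what filled them. Total tags were 325037, 604418 and 421964 in co-culture libraries 1, 2 and 3, against 209043, 43956 and 47528 in single culture libraries 1, 2 and 3; the numbers are those of the table columns. miR-21 took 75.1% to 81.2% of the tags in co-culture and 37.1% to 56.4% in single culture. Sequences of 17 to 20 nt took 2.12% to 3.79% in co-culture and 7.56% to 25.7% in single culture, and their part in the results below was not tested. Levels are therefore given as CPM, the counts of a sequence over the scaled total of its library times 1000000, with totals scaled by TMM, a method that sets the libraries level on the bulk of the sequences. The smallest count listed was 2 tags, so that a blank can be 0 or 1 tag, and 2 tags equalled 5.32 to 7.75 CPM in co-culture and 6.58, 31.0 and 29.6 CPM in single culture libraries 1, 2 and 3. The miRNAs that mark hepatocytes, blood cells, epithelium and muscle were not listed in any library. Of the stellate or mesenchymal markers, miR-143-3p, miR-145-5p and miR-199a were listed and miR-214 was not. miR-145-5p and miR-199a had at most 8 tags in any library. The list summed to 945, 857 and 893 CPM in co-culture and 829, 2495 and 3022 CPM in single culture, and the groups overlapped. Only miR-143-3p was tested, with a log2 fold change of -1.23 (SE 0.45) and an adjusted p of 0.144 in the edgeR fit described below. The endothelial marker miR-126 was listed, and its arms summed to 194, 186 and 255 CPM in co-culture and 174, 124 and 148 CPM in single culture. The groups did not overlap, as in 35.7% of the sequences tested below. Its 3p arm had an adjusted p of 0.401 (edgeR). The part of these markers in the results was not tested.

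The cluster had 9767, 14775 and 10493 tags in co-culture libraries and 11636, 2466 and 2555 tags in single culture libraries. This was 3.00% (95% Wilson interval 2.95 to 3.06), 2.44% (2.41 to 2.48) and 2.49% (2.44 to 2.53) of all tags in co-culture, against 5.57% (5.47 to 5.67), 5.61% (5.40 to 5.83) and 5.38% (5.18 to 5.58) in single culture. The intervals cover counting error only. By this measure each co-culture library was lower than each single culture library. miR-21 took 75.1% to 81.2% of all tags in co-culture and 37.1% to 56.4% in single culture, and its part in this order was not tested. Of the tags other than miR-21, the cluster took 12.05%, 12.99% and 13.2% in co-culture and 12.8%, 9.32% and 8.55% in single culture, and the groups overlapped. Of the tags of known miRNAs other than miR-21, it took 16.7%, 16.4% and 16.99% in co-culture and 17.6%, 19.9% and 19.9% in single culture, and co-culture was again lower throughout. The direction of the cluster's share thus depended on what it was set against.

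On the TMM scale the summed level of the 51 sequences did not separate the groups. It was 37833, 39337 and 37203 CPM in co-culture (38124.5 ± 1097 CPM, mean ± SD, n = 3) and 38300, 38210 and 37843 CPM in single culture (38118 ± 242 CPM, n = 3), a log2 ratio of 0.00. With library size alone and no TMM factor, the log2 ratio was -1.06, and the median log2 fold change of all 182 sequences tested was then -1.11, against -0.04 with TMM. In either scaling the cluster therefore lay close to the bulk of the sequences. The TMM factors were computed with the cluster included, which draws its sum toward 0. With the cluster left out of the factors, a setting chosen after seeing the data, the summed log2 ratio was 0.069 and the median of all tested sequences 0.015. RNA per cell was not measured, and these scalings cannot tell fewer tags per cell from a larger share of other RNA.

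**Figure D1:**
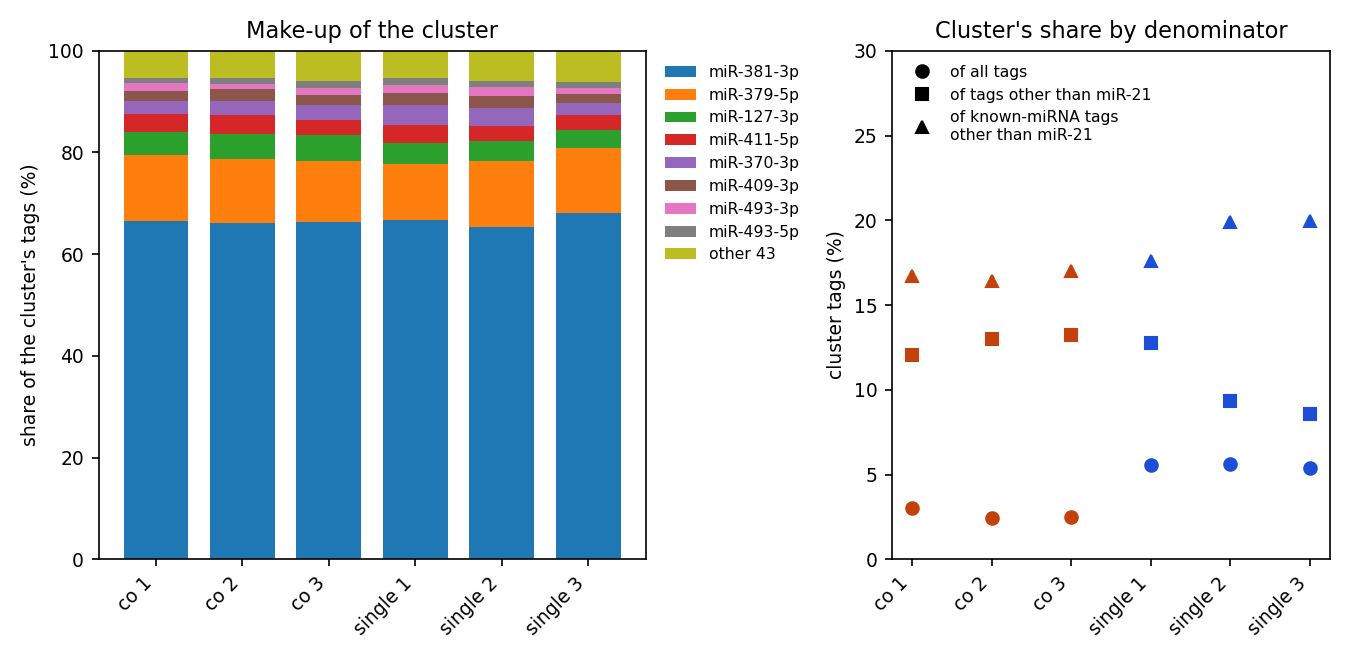
Left, the share of the cluster's tags (%, vertical axis) held by its 8 leading miRNAs and the other 43 sequences, as stacked bars for co-culture libraries 1 to 3 (co) and single culture libraries 1 to 3 (single). Right, the cluster's tags as a percentage of 3 totals in the same libraries, with co-culture in orange and single culture in blue. miR-381-3p takes 65.3% to 68.1% of each bar, and the groups separate against all tags and against known-miRNA tags other than miR-21 but not against all tags other than miR-21.

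The share of miR-381-3p, and that of the leading 8 sequences together, was nearly the same in every library, as the stacked bars show. Other single members varied more. For example, miR-134-5p held 0.70% to 0.76% of the cluster's tags in co-culture and 0.71% to 1.60% in single culture. miR-381-3p, from the MIR381HG transcript, held 66.5%, 66.2% and 66.3% of the cluster's tags in co-culture and 66.7%, 65.3% and 68.1% in single culture. It ranked 5, 4 and 4 among all sequences in co-culture libraries and 4, 8 and 8 in single culture libraries. Together with miR-379-5p, the first miRNA after the gap, and miR-127-3p, which lies antisense to RTL1, it held 83.4% to 84.1% of the cluster's tags in co-culture and 81.9% to 84.3% in single culture. The leading 8 sequences held 94.0% to 94.7% in co-culture and 93.9% to 94.7% in single culture. A chi-square comparison of the tags of the tested cluster miRNAs gave 1.53 to 3.48 per degree of freedom between libraries of the same group and 1.65 to 3.45 between libraries of different groups. Over all 182 sequences these ranges were 3.18 to 159 and 133.4 to 643. The statistic grows with the number of tags, so the cluster's lower values are not set against the rest as a test.

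Of the 51 sequences, 22 reached 10 tags in at least 3 libraries and were tested with edgeR (quasi-likelihood test, Benjamini-Hochberg adjustment over all 182 sequences tested), and 29 did not. None of the 22 passed an adjusted p of 0.05, where 4.4% of all tested sequences did, 2.2% higher and 2.2% lower. None passed a fold over 1.5 together with an unadjusted p under 0.05 either, where 17.6% did, 7.14% higher and 10.4% lower. At an unadjusted p under 0.05 alone, 1 of the 22 passed, where 25.3% did, and DESeq2 called 0 of the 22 at either an adjusted or an unadjusted p of 0.05, with no adjusted p for 5 of them, and 22 of all 182 sequences at the adjusted p. There were 11 fold changes above 0 and 11 below, with a median of 0.01 on the log2 scale, against -0.04 over all tested sequences, and a range of -0.73 to 0.73. The SD of the log2 fold changes was 0.38 in the cluster and 0.88 over the other tested sequences, which include those named by the authors alone. With library size alone, 17 of the 22 had an adjusted p under 0.05 and were lower in co-culture (edgeR), where 76.4% of all tested sequences were.

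A p that misses the threshold does not show that a miRNA did not differ, so the intervals matter here. The 95% interval of the fold change lay within 2-fold either way for 11 of the 22, and within 1.5-fold for 5. The 11 were 9 of the leading 10 sequences, without miR-134-5p, and miR-758-3p and miR-323a-3p. The standard error of the log2 fold change ran from 0.11 for miR-381-3p to 0.54 for miR-382-5p.

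**Figure D2:**
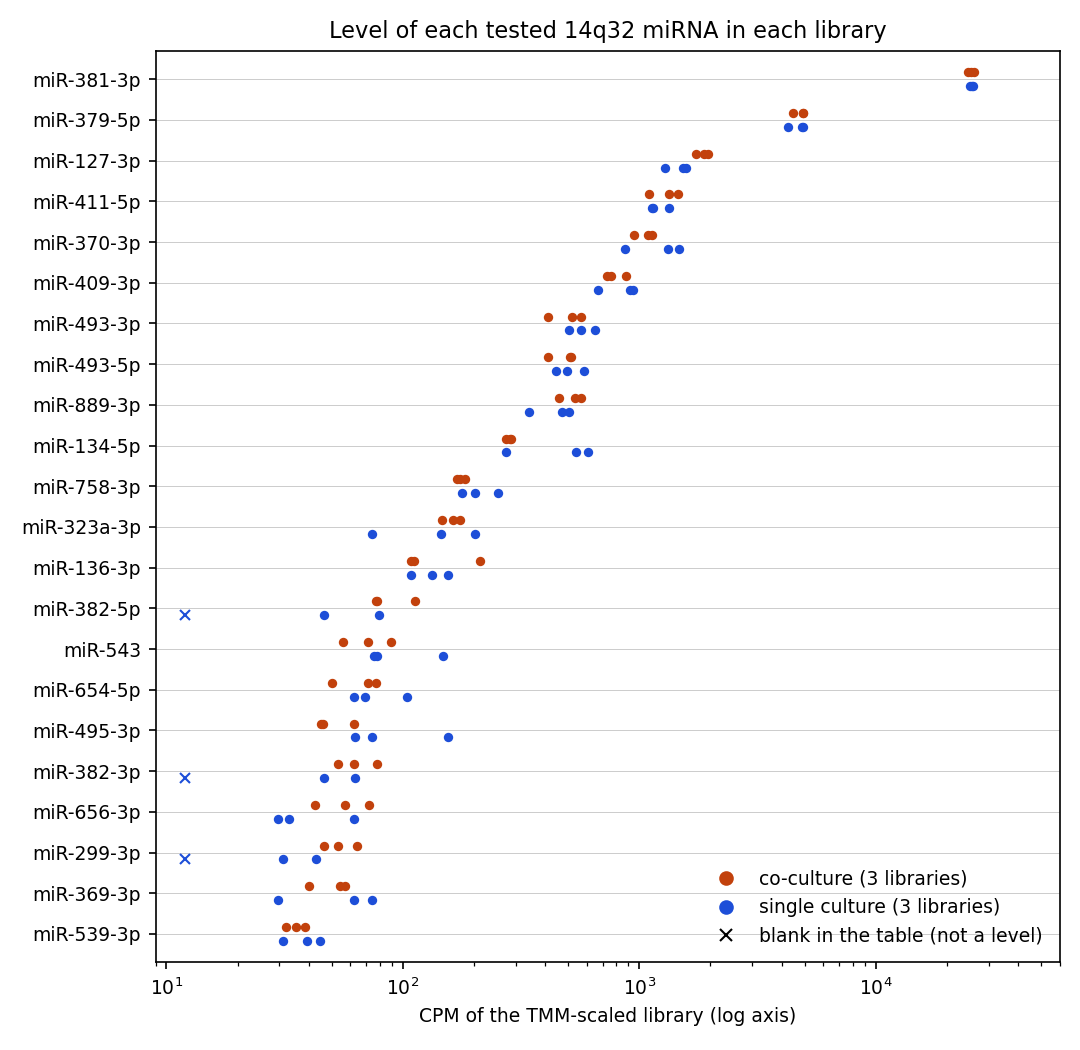
CPM of the TMM-scaled library (log axis) for each of the 22 tested miRNAs in co-culture (orange, 3 libraries, upper row of each line) and single culture (blue, 3 libraries, lower row), in order of total tags; a cross marks a blank, which is not a level. The points of the groups lie over each other for 19 of the 22, and 3 blanks, all in single culture library 3, fall among miRNAs of few tags.

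miR-381-3p (chr14:101045968-101045989) was the most abundant member. It had 25167, 26025 and 24652 CPM in co-culture and 25532, 24962 and 25757 CPM in single culture. The values interleaved, and the log2 fold change was -0.01 (95% interval -0.27 to 0.25). miR-379-5p had 4900, 4904 and 4478 CPM in co-culture and 4272, 4943 and 4873 CPM in single culture, with a log2 fold change of 0.02 (-0.26 to 0.31). For these members a change of 1.5-fold in either direction lay outside the interval.

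The member with the smallest unadjusted p was miR-127-3p (chr14:100883035-100883056), which in human B cells targets the repressor BCL6. It had 1739, 1949 and 1886 CPM in co-culture and 1570, 1534 and 1289 CPM in single culture. Each co-culture library was above each single culture library. The log2 fold change was 0.34 (SE 0.12, 95% interval 0.04 to 0.64), with an unadjusted p of 0.0309 and an adjusted p of 0.144 (edgeR). Counted per 100 tags of miR-381-3p in the same library, which needs no scaling, it had 6.91, 7.49 and 7.65 tags in co-culture and 6.15, 6.15 and 5.003 tags in single culture, without overlap. These ratios use the same counts, and miR-381-3p was level on the TMM scale, so they are not a second measurement. Its adjusted p ran from 0.0512 to 0.350 when each library was left out in turn, and its direction turned to -0.73 with library size alone and to -0.02 with limma on the authors' normalized values.

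miR-127-3p made up most of the 5 sequences within the RTL1 span. Their sum was 1871, 2093 and 2138 CPM in co-culture and 1725, 1720 and 1422 CPM in single culture, with no overlap and a log2 ratio of 0.33. The other tested member of this span, miR-136-3p, had 108, 112 and 213 CPM in co-culture and 109, 155 and 133.3 CPM in single culture, and the groups overlapped. The 10 sequences before the gap summed to 4076 ± 253 CPM in co-culture and 3948 ± 588 CPM in single culture, and the 41 after it to 34048 ± 1124 CPM in co-culture and 34170 ± 347 CPM in single culture (SD, n = 3 each). Neither block separated the groups.

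**Figure D3:**
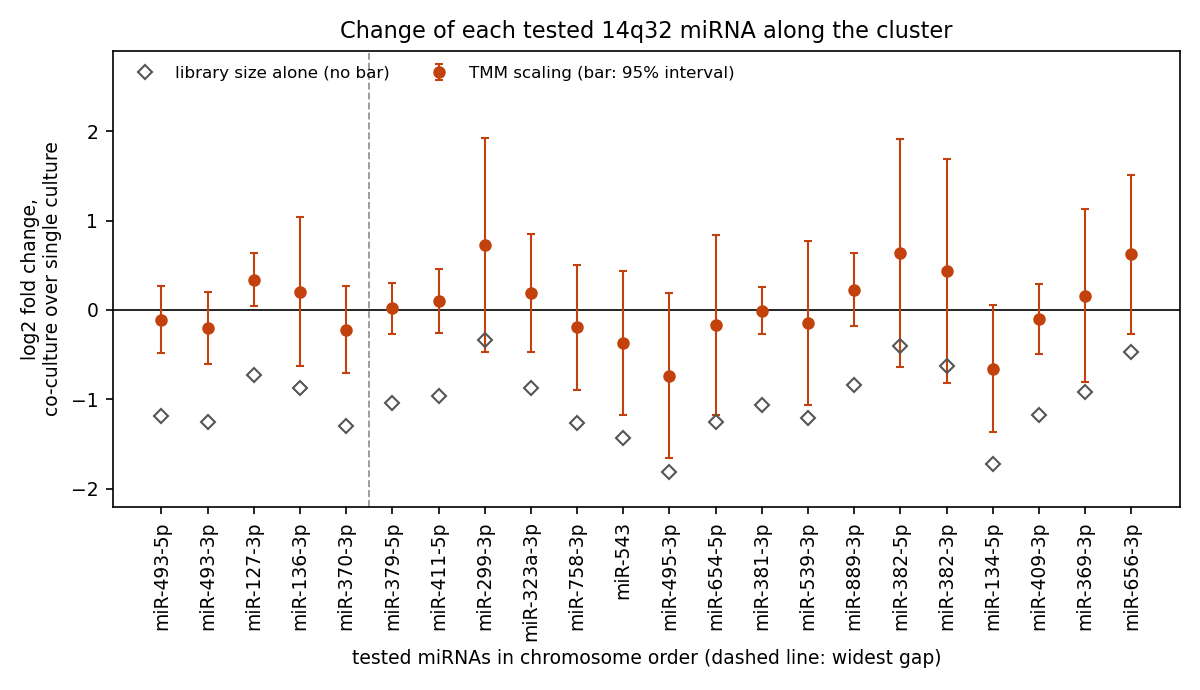
The log2 fold change (co-culture over single culture, vertical axis) of the 22 tested miRNAs in chromosome order, with the 95% interval of the edgeR fit under TMM scaling (orange) and the value under library size alone (grey diamonds); the dashed line marks the 111 kb gap. With TMM the interval excludes 0 for miR-127-3p alone, and with library size alone all 22 values are below 0.

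The other members of the leading 10 sequences had log2 fold changes between -0.22 and 0.23, apart from miR-134-5p. miR-411-5p, from the hairpin next to miR-379 on the chromosome, had 1333, 1454 and 1103 CPM in co-culture and 1340, 1131 and 1140 CPM in single culture. miR-370-3p, which targets the fatty acid oxidation enzyme CPT1A in human liver cells, had 945, 1134 and 1088 CPM in co-culture and 1471, 1317 and 874 CPM in single culture. Both overlapped between groups, and for miR-370-3p single culture library 3 was the lowest of all 6 libraries. miR-409-3p, which targets the angiogenic factor angiogenin, had 759, 879 and 727 CPM in co-culture and 941, 914 and 667 CPM in single culture. miR-889-3p had 457, 564 and 535 CPM in co-culture and 471, 341 and 504 CPM in single culture. For each of these, the range of 1 group reached into that of the other.

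miR-134-5p, known in rat neurons for its control of the actin regulator Limk1, was an abundant member whose value depended on which single culture libraries were kept. It had 287, 274 and 284 CPM in co-culture and 273, 542 and 607 CPM in single culture. The co-culture libraries lay close together, and single culture library 1 lay with them and apart from the other single culture libraries. The log2 fold change was -0.66 (SE 0.30), with an adjusted p of 0.214 (edgeR). Without single culture library 1 it was -1.05 with an adjusted p of 0.00121 (edgeR), where 25% of the sequences then tested passed, and without the other 2 single culture libraries it was 0.04. Those 2 libraries were also the shallowest, and the part of depth in this value was not tested.

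The remaining tested members each had fewer tags than the leading 10. miR-758-3p had 174, 184 and 170 CPM in co-culture and 178, 201 and 252 CPM in single culture, and miR-323a-3p had 174, 146 and 163 CPM in co-culture and 144.8, 201 and 74.1 CPM in single culture. The fold change passed 1.5 for 5 of the 22 with no regard to p, where 25.3% of all tested sequences did: miR-134-5p and miR-495-3p toward lower and miR-299-3p, miR-382-5p and miR-656-3p toward higher values. miR-495-3p had 62.0, 45.3 and 46.1 CPM in co-culture and 62.5, 155 and 74.1 CPM in single culture, with a log2 fold change of -0.73 (95% interval -1.66 to 0.19). Its groups did not overlap, but co-culture library 1 and single culture library 1 differed by under 1 CPM. miR-299-3p had 46.5, 53.3 and 63.8 CPM in co-culture and 42.8 and 31.0 CPM in single culture libraries 1 and 2, and it was blank in library 3; its log2 fold change was 0.73 (-0.47 to 1.93), and 0.43 to 1.79 with each library left out in turn, the highest without single culture library 1. With miR-127-3p, these were the 3 of 22 whose groups did not overlap, 2 higher and 1 lower, where 35.7% of all tested sequences did not, 19.8% higher and 15.9% lower. The arms of miR-382 were blank in that same library. miR-382-5p had 112, 77.2 and 78.0 CPM in co-culture and 79.0 and 46.5 CPM in single culture libraries 1 and 2, and miR-382-3p had 62.0, 53.3 and 78.0 CPM in co-culture and 62.5 and 46.5 CPM there. With each library left out in turn, the log2 fold change ran from 0.30 to 1.90 for miR-382-5p and from 0.11 to 1.44 for miR-382-3p. miR-656-3p had 42.6, 71.9 and 56.7 CPM in co-culture and 32.9, 62.0 and 29.6 CPM in single culture, and the groups overlapped.

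The last 4 tested members overlapped between groups as well. miR-543 had 89.1, 55.9 and 70.9 CPM in co-culture and 75.7, 77.5 and 148 CPM in single culture. miR-654-5p had 50.4, 77.2 and 70.9 CPM in co-culture and 69.1, 62.0 and 103.7 CPM in single culture. In both, the highest value was that of single culture library 3, which rested on 10 tags for miR-543 and on 7 for miR-654-5p. miR-369-3p had 54.2, 39.9 and 56.7 CPM in co-culture and 29.6, 62.0 and 74.1 CPM in single culture. miR-539-3p had 38.7, 31.95 and 35.5 CPM in co-culture and 39.5, 31.0 and 44.4 CPM in single culture.

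miR-493-3p and miR-493-5p, from 1 hairpin, had similar levels. The 3p arm had 566, 410 and 521.2 CPM in co-culture and 566, 651 and 504 CPM in single culture, and the 5p arm 410.6, 511 and 514 CPM in co-culture and 583, 495.8 and 444 CPM in single culture. The 5p share of the hairpin's tags was 42.1%, 55.5% and 49.7% in co-culture and 50.7%, 43.2% and 46.9% in single culture. miR-382 also gave both arms, with 57.2% of its 187 tags from the 5p arm. By contrast, miR-379 gave 99.97% of its 6318 tags from the 5p arm and miR-409 gave 3.61% of its 1163 tags from it.

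**Figure D4:**
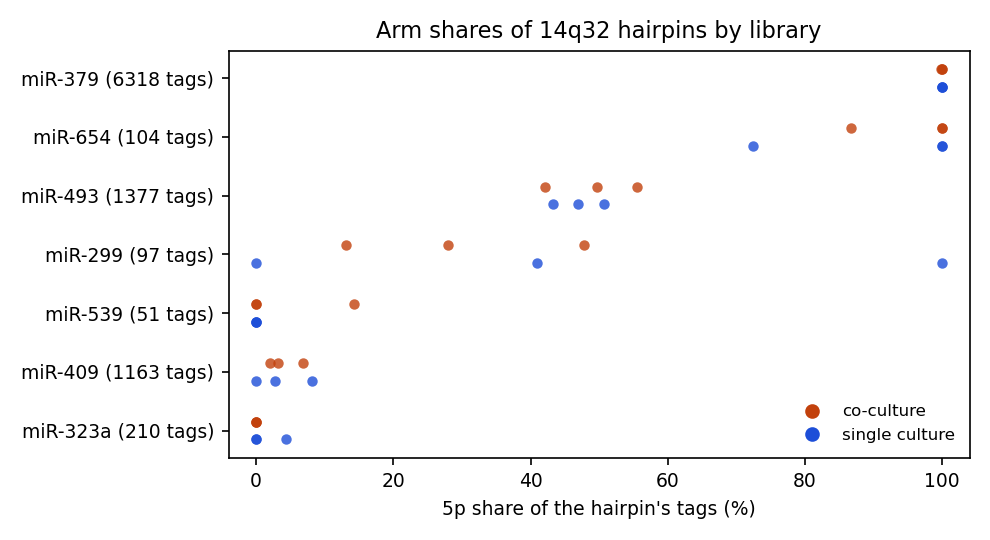
The 5p share of each hairpin's tags (%, horizontal axis) in each library for the 7 hairpins compared, with co-culture in orange above single culture in blue and the hairpin's tags over all libraries in parentheses. The shares of the groups overlap in all 7. For miR-323a, miR-379, miR-539 and miR-654 this was fixed in advance, with 1 arm listed in at most 2 libraries. The points of miR-299, miR-654 and miR-539 rest on few tags.

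Both arms were listed for 11 hairpins, of which 7 gave more 3p and 4 more 5p tags. The arm shares were compared for the 7 hairpins with at least 20 tags in all and with tags in every library. The groups overlapped in all 7, and the exact permutation test (two-sided), which cannot give less than 0.10 with 3 against 3 libraries, gave p-values of 0.80 to 1.00, each 1.00 after adjustment over the 7. The arm of fewer tags was listed in only 1 library for miR-323a, miR-379 and miR-539 and in 2 for miR-654. Both groups then hold a library at 0% or at 100%, so that the overlap of these hairpins was fixed in advance and is not read as a result. The widest difference was in miR-299, whose 5p share was 47.8%, 13.0% and 28.0% in co-culture and 40.9%, 0% and 100% in single culture, on 97 tags over all libraries.

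The 29 sequences below the minimum count held 2 to 42 tags over all libraries and at most 15 in any one, and together they summed to 284 ± 28.2 CPM in co-culture and 285 ± 61.0 CPM in single culture (SD, n = 3 each). miR-154-5p, which was also transfected into LX-2 cells in the study, is one of them. It had 2, 4 and 2 tags in co-culture and was blank in all 3 single culture libraries. The smallest value the table lists is 2 tags. In the edgeR fit with no minimum count, its unadjusted p was 0.109 and its adjusted p 0.519. No fold is given against a group of blanks. The study reported this miRNA as higher in co-culture, first by sequencing and then by qRT-PCR, a separate measurement not examined here. On so few tags, the edgeR fit cannot decide whether its level differed. In the study, its transfection did not significantly change the fibrosis markers α-SMA and Col1α1. miR-410-3p and miR-655-3p were the only sequences below the minimum that were listed in all 6 libraries. miR-410-3p had 7, 7 and 2 tags in co-culture and 11, 3 and 3 tags in single culture. miR-655-3p, which targets ZEB1 and the TGF-β receptor TGFBR2 in human cancer cells, had 3, 4 and 3 tags in co-culture and 6, 2 and 2 tags in single culture. Both had lower CPM in each co-culture library than in any single culture library. miR-410-3p had 27.1, 18.6 and 7.09 CPM in co-culture and 36.2, 46.5 and 44.4 CPM in single culture. miR-655-3p had 11.6, 10.6 and 10.6 CPM in co-culture and 19.7, 31.0 and 29.6 CPM in single culture. However, single culture libraries 2 and 3 rest on 2 or 3 tags each, and 2 tags there already equal 31.0 and 29.6 CPM. With these members chosen as listed in all 6 libraries, the order against those libraries was fixed in advance and is not read as a difference. Without the minimum, edgeR gave adjusted p-values of 0.509 for miR-410-3p and 0.649 for miR-655-3p. The sequences of these 3, with the seed in capitals, are shown because their values rest on few tags in every library.
miR-154-5p: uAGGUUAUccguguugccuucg
miR-410-3p: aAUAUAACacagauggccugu
miR-655-3p: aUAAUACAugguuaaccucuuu

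How many members were listed was compared at the deposited and at equal depths. The table listed 37, 45 and 42 of the 51 in co-culture and 42, 29 and 25 in single culture. Of all 463 sequences it listed 320, 372 and 324 in co-culture and 349, 233 and 233 in single culture, also fewest in the 2 shallowest libraries. Thinned to 43956 tags, the total of the smallest library, the expected numbers of cluster sequences were 20.2, 17.8 and 19.4 in co-culture and 26.7, 29 and 24.4 in single culture. With the miR-21 tags left out and the rest thinned to 26463 tags, they were 27.7, 28.1 and 29.5 in co-culture and 30.2, 29 and 24.0 in single culture. The order of the groups thus changed with the depth taken, and 7 sequences listed in no single culture library and 4 listed in no co-culture library are not read as present in 1 group alone. The 7 were miR-154-5p, miR-494-3p, miR-433-3p, miR-323b-3p, miR-379-3p, miR-539-5p and miR-541-3p, and the 4 were miR-337-5p, miR-1185-2-3p, miR-323a-5p and miR-412-5p.

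A stretch of sequence recurred within the cluster that the choice by name had not used. The letters GGUNNAC, read on the miRNA strand and chosen after the sequences were seen, occurred in 17 of the 51 sequences (33.3%) and in 3 of the 294 known miRNAs outside the cluster (1.02%). In 9 of the 17 they filled bases 11 to 17, behind the seed, and in 3 they filled the seed itself. Of the 17, 16 lay after the gap and 1 before it, and 11 came from 3p arms, against 0 of 128 3p sequences among the known miRNAs outside. 6 of the 17 are shown, with these letters in capitals, to let their 3′ parts be compared.
miR-323a-3p: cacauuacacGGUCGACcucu
miR-323b-3p: cccaauacacGGUCGACcucuu
miR-758-3p: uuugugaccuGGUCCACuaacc
miR-379-3p: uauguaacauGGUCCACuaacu
miR-495-3p: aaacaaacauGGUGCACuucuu
miR-543: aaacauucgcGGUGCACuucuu
Each neighbouring pair carried the same letters at NN, while the seeds differed. Members of a miRNA family share sequence by descent, so the 17 are not independent occurrences. A match is a description of letters and not a binding site. Of the 51 sequences, 64.7% came from 3p arms, against 43.5% of the known miRNAs outside, and the median GC content was 45.5% in the cluster and 47.8% outside.

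miRNAs of other imprinted regions were sparse. Of the list of such miRNAs, miR-296 and miR-335 were listed, and miR-335-3p, from the MEST gene, was the only tested sequence. It fell in co-culture by 0.80 on the log2 scale (SE 0.14), with an adjusted p of 0.0260 (edgeR). The call was lost when any library but single culture library 1 was left out, with adjusted p-values of 0.0597 to 0.105 (edgeR). With all 6 libraries kept, it was lost with the column number as a replicate block (adjusted p of 0.211, edgeR). It was also lost with limma on the authors' normalized values (adjusted p of 0.146), and it was kept in the other alternatives with all 6 libraries.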

How the data were processed

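Small RNA of LX-2 cells was sequenced by the authors (Illumina). The authors deposited raw tag counts per mature miRNA, normalized tag counts (a scaled signal, used in 1 alternative) and their own fold changes, p-values and FDR, which were not used. The tool Bowtie 0.12.2 and the builds hg18 and mm8 are listed in the submitters' processing notes; the sources used here do not give the role of each build. Columns are numbered and got their group from the named mean columns of the authors' tables, equal within 1e-05; 0 columns had no group, and which column is which sample is not known. Rows of the same sequence were merged (520 rows, 463 sequences). edgeR 4.0.16 (R 4.3.3) was run on counts with TMM scaling, a filter of at least 10 tags in at least 3 libraries and p-values of 182 sequences adjusted by Benjamini-Hochberg, and was tested on simulated data. Standard errors were derived from each log2 fold change and its p. DESeq2 1.42.0 and limma 3.58.1 (log2 of the authors' normalized value plus 1) were alternatives, besides other scalings, filters, libraries left out and, added later, TMM factors without the cluster. Depth was 43956 to 604418 tags. Members, lists and tests were chosen with earlier results of these data known. The text names every tested member, those in all 6 libraries and miR-154-5p, which the study's text names, and gives the rest by range; members singled out for not being listed, for a shared seed or for a letter match were named after their values were seen. Positions are from RefSeq (GRCh38.p14) and gene spans from GENCODE release 29 on GRCh38.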

Additional observations from a re-analysis of the deposited data

How the results depend on the processing

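Of 403 results of single miRNAs under the alternatives, 364 kept their direction and 39 changed sign, and 18 newly passed the adjusted p, 17 of them with library size alone; DESeq2 gave no adjusted p for 5. With library size alone, 17 of the tested cluster miRNAs passed the adjusted p (76.9% of all tested sequences) and 17 the fold and unadjusted p (78.6%, edgeR). The median log2 fold change was -1.05, the summed log2 ratio -1.06, and 16 did not overlap (76.4% of all tested sequences). The log2 fold changes that turned were then -0.73 for miR-127-3p, -0.88 for miR-136-3p, -0.34 for miR-299-3p, -0.87 for miR-323a-3p, -0.91 for miR-369-3p, -1.04 for miR-379-5p, -0.62 for miR-382-3p, -0.40 for miR-382-5p, -0.96 for miR-411-5p, -0.47 for miR-656-3p and -0.84 for miR-889-3p. The median of all tested sequences was -1.11 under this scaling, so the lower values were not particular to the cluster. Which scaling is nearer to the level per cell was not tested.

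With limma on the authors' normalized values, the median was -0.37, as it was over all tested sequences, and 2 passed the fold and unadjusted p (miR-134-5p and miR-495-3p). Those that turned were miR-127-3p (-0.019), miR-136-3p (-0.30), miR-323a-3p (-0.058), miR-369-3p (-0.36), miR-379-5p (-0.35), miR-411-5p (-0.27) and miR-889-3p (-0.11). No minimum count gave 2 past the fold and unadjusted p (miR-134-5p and miR-337-5p). For this setting and for limma the share over all tested sequences is not given here, so these counts are not read as particular to the cluster. Sequences of 21 nt or longer gave 1 (miR-134-5p), where 13.6% of all sequences then tested passed. The summed log2 ratio was -0.076 with known miRNAs only, -0.10 with sequences of 21 nt or longer and 0.069 with the cluster left out of the TMM factors, a setting chosen after seeing the data. With blanks taken as 1 tag, 1 hairpin had arm shares that did not overlap. Without the 2 single culture libraries of fewest tags, 13 of the tested miRNAs did not overlap (64.4% of all tested) with the 1 library that was left, and miR-134-5p was at 0.040 and miR-411-5p at -0.046.

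Leaving out each library in turn gave 0 to 1 past the adjusted p, 0 to 3 past the fold and unadjusted p, a median of -0.061 to 0.019, a summed log2 ratio of -0.041 to 0.0020, 3 to 8 without overlap and 0 to 1 hairpins without overlap (the 1 without single culture library 3). Over all tested sequences, 0 to 43 passed the adjusted p, 26 to 43 the fold and unadjusted p, and 41.9% to 59.3% did not overlap. The highest counts of miRNAs came without single culture library 1, where miR-134-5p passed the adjusted p and miR-134-5p, miR-382-5p and miR-495-3p the fold and unadjusted p. The log2 fold changes that turned ran from -0.20 to 0.34 for miR-136-3p, -0.0046 to 0.38 for miR-323a-3p, -0.48 to 0.44 for miR-369-3p, -0.064 to 0.059 for miR-379-5p, -0.047 to 0.0014 for miR-381-3p, -0.0046 to 0.19 for miR-411-5p and -0.19 to 0.017 for miR-493-5p. miR-379-5p also turned with a minimum of 50 counts (-0.058), known miRNAs only (-0.051) and sequences of 21 nt or longer (-0.082), and miR-381-3p with RLE scaling (0.0049), DESeq2 (0.0048), miR-21 left out of the factors (0.0097), no minimum (0.047), 1 row per mature name (0.048) and the cluster left out of the factors (0.062). Other than where stated, the cause was not tested.

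Whether the numbers in the column names pair the libraries is not known. The deviations of same-numbered libraries correlated at -0.34, -0.10 and -0.20, which cannot decide this with 3 libraries per group. With the number as a replicate block, 0 cluster miRNAs passed either rule, the median log2 fold change was 0.0070, and 0 of all 182 sequences passed the adjusted p, against 8 without the block. Depth also sets a limit: in single culture libraries 2 and 3, 10 tags equal 155 and 148 CPM, above the level of most cluster miRNAs.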
